A study of Mus musculus with 4 samples.

Results

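The genes described here are 45 genes of the Polycomb and Trithorax systems and of the enzymes that write and remove histone modifications, chosen from a list of symbols matched to the deposited expression tables. All 45 were found among the 23235 gene symbols of each table, and all 45 were expressed highly enough to be tested. The cells were HG165, an androgenetic mouse haploid embryonic stem cell (haESC) line of C57BL/6 origin, whose single genome comes from sperm. The cells were treated with the solvent DMSO or with RDF, a mixture of Repsox, which blocks TGF-β signalling, DMH1, which blocks BMP4 signalling, and Forskolin, which activates adenylate cyclase, and 2 samples of each condition were profiled by mRNA sequencing. The study asked by which genes RDF keeps haESCs from becoming diploid, and no other genotype, agent or time point was part of the 4 samples. The labels place haESCs on feeder cells in serum medium with leukemia inhibitory factor unless another medium is named. The study's methods add that feeder cells were left out of most experiments. The exceptions named there are the analyses of haploid percentage and of morphology and the alkaline phosphatase staining. RNA sequencing is not among them. The doses, the duration of treatment and any sort for haploid cells before RNA was taken are not given for these 4 samples in the sources used here. Both conditions rest on a single line, and the labels do not say whether the 2 samples of a condition came from separate cultures, so p-values measure only the spread between these samples.

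Polycomb proteins keep developmental genes silent in ESCs through a pair of complexes. PRC2 methylates lysine 27 of histone H3 (H3K27), and PRC1 ubiquitinates a lysine of histone H2A and compacts chromatin. Trithorax-group complexes methylate H3K4 at active promoters and oppose Polycomb silencing, while H3K9 methylation marks silent repeats and heterochromatin. Demethylases, deacetylases and acetyltransferases turn these marks over, and the acetyltransferases p300 and CBP are the classical coactivators of CREB, the factor that cAMP signalling activates.

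Expression was given as FPKM, the fragments mapped to a gene scaled by transcript length and sequencing depth, so that levels of different genes can be set side by side. The depth estimated from low values was between 9700000 and 12340000 fragments per sample, and 11733 genes had a mean of at least 1 FPKM. The pluripotency marker Pou5f1 had 1285 and 1223 FPKM in DMSO and 1031 and 939 FPKM in RDF, and of 11 pluripotency markers 4 rose and 5 fell, with Nanog at 42.6 to 50.6 FPKM in the 4 samples. A list of 11 fibroblast genes would mark feeder cells if any were present. These genes summed to 48.8 FPKM in each DMSO sample and to 34.1 and 35.3 FPKM in RDF. Of the 9 tested, 5 fell (Col1a1, Col1a2, Col5a1, Postn and Thy1), Dcn rose, and Col3a1 and Lum were under the limit of 1 FPKM. The summed level of 6 trophoblast genes was 36.1 and 33.1 FPKM in DMSO and 62.4 and 65.7 FPKM in RDF, most of it from Tfap2c, with 27.2 and 25.1 FPKM in DMSO and 48.3 and 50.7 FPKM in RDF. Elf5 and Cdx2 of this list were under 1 FPKM in every sample. In 8 primitive endoderm genes the sum was 8.0 and 6.58 FPKM in DMSO and 10.8 and 11.3 FPKM in RDF. Of these, Afp, Sox17, Foxa2, Dab2 and Pdgfra were under 1 FPKM in every sample. Only Gata4 and Gata6 were tested, and Gata6 was called higher. The 13 genes of DNA replication summed to between 1795 and 1859 FPKM in the 4 samples. Of these 13, Cdt1 and Rrm2 were called higher and Ccne2 lower. The part of these lists in the results was not tested. In bulk samples fewer cells of a type and less RNA per cell cannot be told apart.

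With RDF, 9 of the 45 chromatin genes rose and none fell. The count of rises was 2 without either RDF sample, and 5 without DMSO replicate 2 or with no filter on low values. The risers were the PRC2 scaffold Suz12 and its Polycomb-like partner Mtf2, the PRC1 genes Cbx6, Cbx7, Cbx8 and Phc1, the demethylases Kdm3a and Kdm4b, and the acetyltransferase Ep300. The log2 fold change, the difference in mean log2(FPKM + 1), ran from -0.17 for Pcgf6 to 0.90 for Ep300, with a median of 0.14 over the 45 genes against 0.03 over all genes tested. In limma at an adjusted p under 0.05, genes higher in RDF made up 20% of the 45, against 13.3% of all genes tested, and genes lower in RDF made up 8.28% of all genes tested. At an unadjusted p under 0.05, 18 of the 45 genes were higher and 0 were lower, against 22.5% higher and 15.5% lower of all genes tested. Both RDF values lay above both DMSO values for 29 of the 45 genes (64.4%), against 37.1% of all genes, and below them for 4 (Pcgf6, Wdr5, Hdac1 and Kat2a), against 28.5% of all genes. Of the 45 genes, Suz12 and Ep300 had by far the largest changes, and Cbx6 came next with 0.52 on the log2 scale. The median difference between replicates was 0.065 in DMSO and 0.080 in RDF for the 45 genes, against a median absolute change with treatment of 0.14. Over all genes tested the differences between replicates were 0.089 and 0.087 and the absolute change was 0.16, so the size of the change in the 45 genes was no larger than in genes at large.

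**Figure D1:**
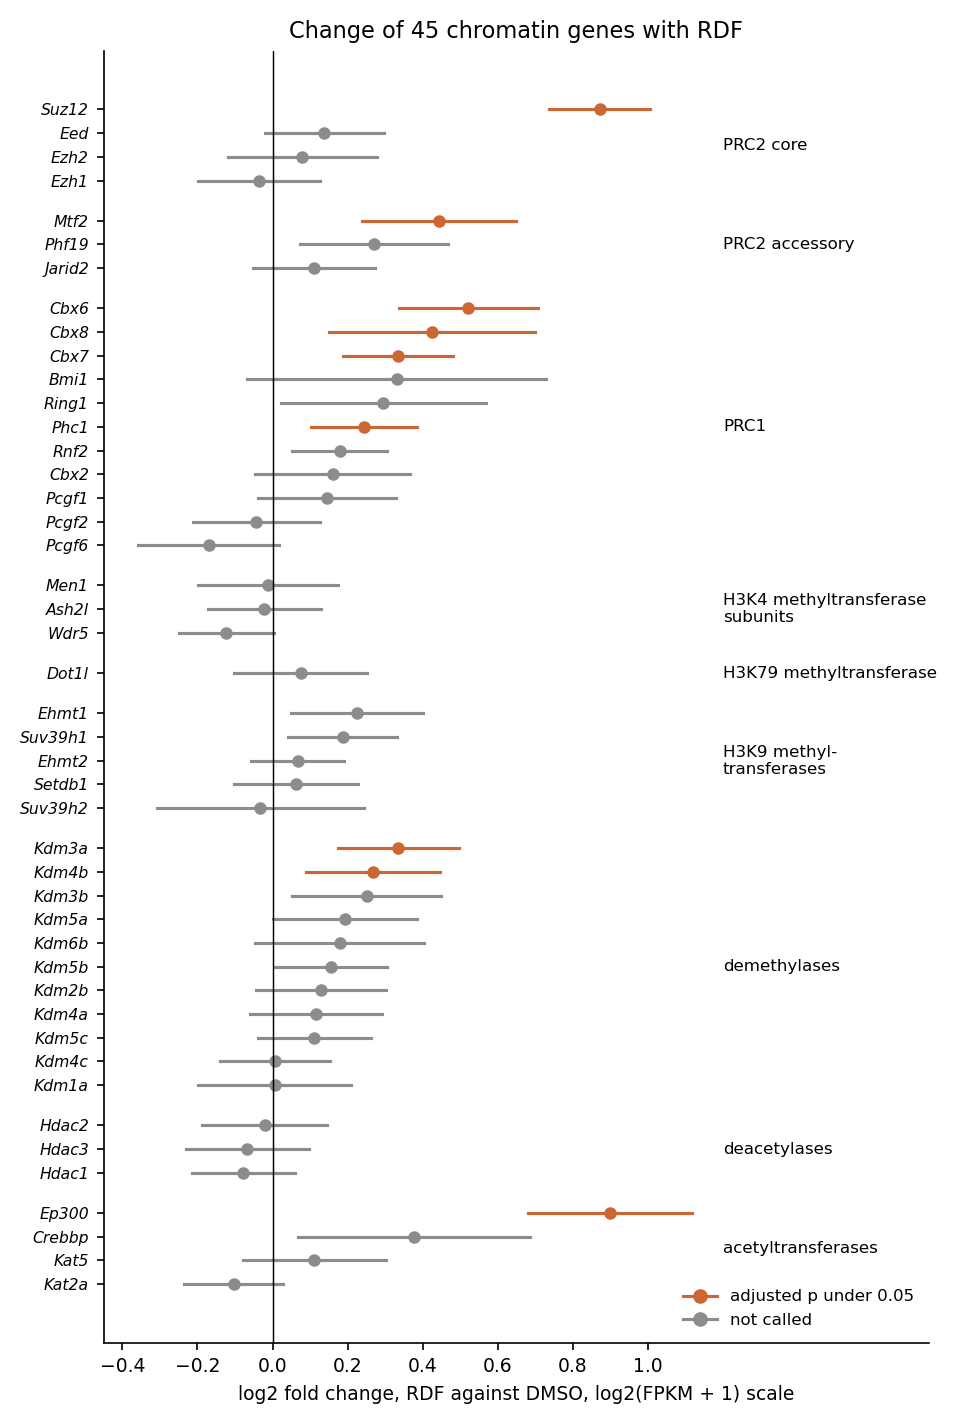
Log2 fold change of each of the 45 chromatin genes, RDF against DMSO on the log2(FPKM + 1) scale (x axis), grouped by role. Points are limma estimates from 2 samples per condition, bars are 95% confidence intervals, and the 9 coloured genes had an adjusted p under 0.05. Suz12 and Ep300 stand apart at 0.87 and 0.90, while the H3K4 methyltransferase subunits and the deacetylases lie at or below 0.

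These genes are long, and long transcripts as a whole were higher in RDF. The longest annotated transcript had a median of 4026 bases for the 45 genes and 2880 bases for all tested genes with an annotated length. Of all genes with transcripts of 4266 to 23407 bases, 21.6% were called higher, beside 5 of 18 of the chromatin genes of that length (27.8%). Of all genes with 2880 to 4265 bases, 14.7% were called higher, beside 4 of 18 (22.2%). The 9 shorter chromatin genes, from Pcgf1 with 870 bases to Pcgf6 with 2832 bases, held no call, while 7.64% and 10.1% of all genes in the corresponding length classes were called higher. The median change of the 45 genes was 0.058 on the log2 scale after a trend on length and GC content was removed from each sample, and 0.019 over all genes. With the length classes weighted by the number of chromatin genes in them, 16.5% of all genes were called higher, which lies between the 13.3% of all genes and the 20% of the 45 genes. The part of length in the change of a single gene was not tested. Suz12 and Ep300 lay far above their length class, whose median change was 0.13 on the log2 scale, and kept changes of 0.79 and 0.75 after the correction.

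**Figure D2:**
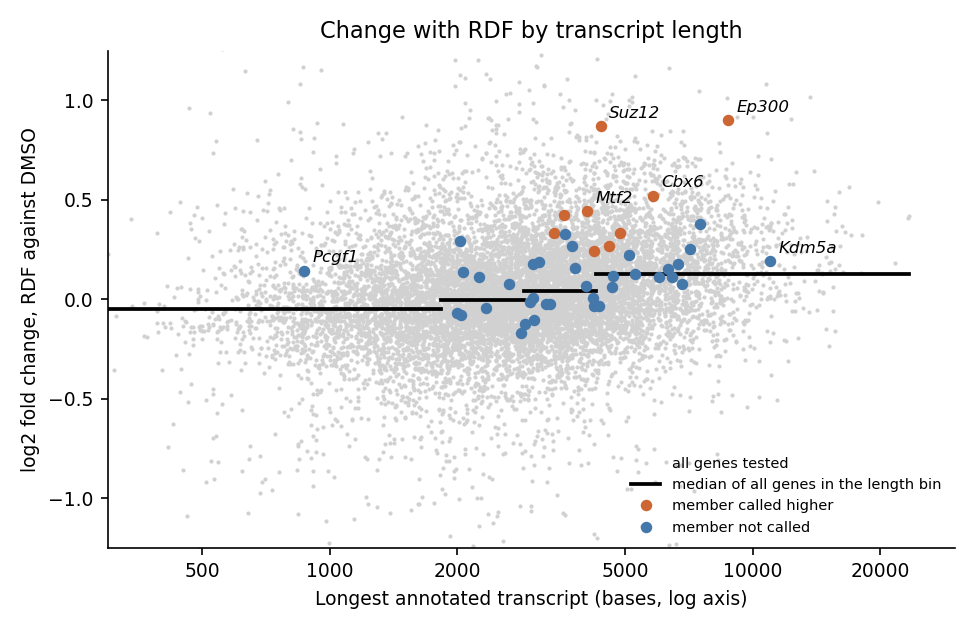
Log2 fold change, RDF against DMSO (y axis), by the length of the longest annotated transcript in bases (x axis, log scale). Grey points are all genes tested with a known length, black lines the median of each of 4 length classes, orange points the 9 chromatin genes called higher and blue points the other 36. Genes beyond the range of the y axis are not drawn. The black lines climb from -0.05 to 0.13 and most chromatin genes lie in the classes on the right.

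Within the PRC2 core, Suz12 rose while the other subunits did not pass the test. Suz12, the subunit that holds the complex together, lies on chromosome 11 (79806608 to 79847625, plus strand, mouse build NCBIM37, the assembly mm9). It had 41.6 and 42.0 FPKM in DMSO and 75.3 and 79.4 FPKM in RDF. The RDF values lay far above the DMSO values, and the mean was 1.85 times higher. The log2 fold change was 0.87 (SE 0.055, adjusted p = 0.000836 from limma), between 0.83 and 0.91 over the fits that leave out 1 sample. An antisense gene, Gm16706, shares 178 exonic bases with Suz12 (3.60% of its exonic bases), and the strand setting of the authors' counting is not given in the sources used here.

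The catalytic subunit Ezh2 had 91.0 and 78.5 FPKM in DMSO and 92.0 and 86.7 FPKM in RDF, with overlapping groups and a 95% interval of the log2 fold change from -0.12 to 0.28. Its paralog Ezh1, also a methyltransferase, was lower at 12.8 to 13.6 FPKM in the 4 samples, with an interval from -0.20 to 0.13. Ezh2 made up 85.2% to 87.8% of the summed FPKM of both enzymes in every sample, so the balance between them showed no separation of the groups. Eed, which binds methylated H3K27, had 57.6 and 58.5 FPKM in DMSO and 67.3 and 60.8 FPKM in RDF. Both RDF values of Eed were higher, but the interval, from -0.02 to 0.30, included 0 (adjusted p = 0.178). The ratio of Suz12 to Eed was 0.722 and 0.718 in the DMSO samples and 1.12 and 1.30 in the RDF samples, and that of Suz12 to Ezh2 was 0.458 and 0.535 against 0.819 and 0.915. Eed and Ezh2 kept a ratio between 0.634 and 0.745 in all 4 samples, so the ratios that differed between the conditions were those with Suz12. No test was made of these ratios or of the paralog shares below.

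The PRC2 accessory genes all had higher values in both RDF samples. Mtf2, a Polycomb-like protein that binds unmethylated CpG-rich DNA and brings PRC2 there (chromosome 5, 108494693 to 108538023), had 26.8 and 24.0 FPKM in DMSO and 37.0 and 32.9 FPKM in RDF. The groups did not overlap, and the log2 fold change was 0.44 (SE 0.084, adjusted p = 0.0173), a mean 1.38 times higher. It shares 395 exonic bases (7.51% of its own) with Tmed5 on the opposite strand. Without either RDF sample its adjusted p was above 0.05, and it reached 0.0512 with no filter on low values. Phf19, a related Polycomb-like protein, had 10.2 and 11.5 FPKM in DMSO and 13.0 and 13.5 FPKM in RDF (log2 fold change 0.27, interval 0.07 to 0.47, adjusted p = 0.0622). Jarid2, which directs PRC2 to ubiquitinated H2A, had 46.6 and 45.5 FPKM in DMSO and 47.3 and 52.4 FPKM in RDF, with an interval from -0.05 to 0.27. Mtf2 stood at 0.575 and 0.528 of Jarid2 in the DMSO samples and at 0.781 and 0.627 in the RDF samples.

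**Figure D3:**
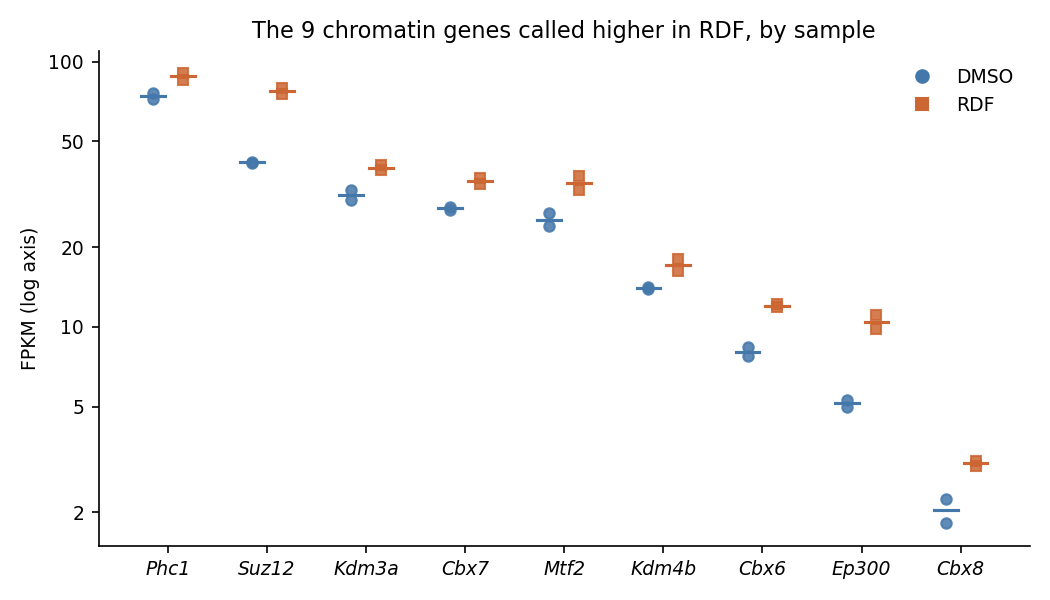
FPKM (y axis, log scale) of the 9 chromatin genes called higher in RDF, ordered by level. Circles are the 2 DMSO samples, squares the 2 RDF samples and horizontal lines the group means. Both squares lie above both circles for every gene, with the widest gaps for Suz12 (42.0 to 75.3 FPKM between the nearest samples) and Ep300 (5.29 to 9.84 FPKM).

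PRC1 held the most rises of any role, with 4 of 11 genes called higher and none lower at a median log2 fold change of 0.24. This was 36.4% called higher, against 13.3% of all genes tested, of which 8.28% were called lower. PRC1 and the demethylases, with 11 genes each, were also the largest roles. At an unadjusted p under 0.05, 6 of these 11 were higher and 0 lower, against 22.5% and 15.5% of all genes. The rises lay among the Cbx genes, whose chromodomains read methylated H3K27, and in Phc1, whose SAM domain links PRC1 particles. Cbx7, the main Cbx protein of ESCs, had 28.4 and 27.6 FPKM in DMSO and 36.6 and 34.5 FPKM in RDF (log2 fold change 0.33, SE 0.060, adjusted p = 0.0143). Cbx6 had 7.74 and 8.41 FPKM in DMSO and 11.8 and 12.2 FPKM in RDF (log2 fold change 0.52, SE 0.076, adjusted p = 0.00802). For neither gene did the groups overlap, and the mean was 1.27 times higher for Cbx7 and 1.49 times higher for Cbx6. The adjusted p of both genes was above 0.05 without either RDF sample, reaching 0.0900 for Cbx7 and 0.0708 for Cbx6. Cbx6 shares 1175 exonic bases (18.7% of its own) with Npcd on the same strand, and Npcd had 0.938 and 2.39 FPKM in DMSO and 2.29 and 2.00 FPKM in RDF.

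Cbx8 was the lowest of the called genes, at 2.25 and 1.82 FPKM in DMSO and 3.12 and 3.00 FPKM in RDF, with at least about 72.2 fragments behind each value. Its groups did not overlap, and its log2 fold change of 0.42 (SE 0.112, adjusted p = 0.0439) lost its call in 6 of 11 other fits, where the adjusted p reached 0.168. Cbx2, which lies beside Cbx8 on chromosome 11 (118884276 to 118892584, against 118897619 to 118902283 for Cbx8), had 6.14 and 5.88 FPKM in DMSO and 6.54 and 7.13 FPKM in RDF, with an interval from -0.05 to 0.37. Cbx6 (79654326 to 79665118) and Cbx7 (79746237 to 79801549) are likewise close to each other, on the minus strand of chromosome 15. The summed FPKM of these 4 Cbx genes was 44.5 and 43.7 in the DMSO samples and 58.1 and 56.9 in the RDF samples. Their balance moved less than their sum, though the share of each of the 4 was separate between the groups. Cbx7 held 63.8% and 63.1% of the sum in the DMSO samples and 63.0% and 60.7% in the RDF samples. Cbx8 held 5.05% and 4.17% against 5.38% and 5.28%. The share of Cbx6 was 17.4% and 19.2% in the DMSO samples and 20.4% and 21.4% in the RDF samples, while that of Cbx2 was 13.8% and 13.5% against 11.3% and 12.5%.

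Phc1 was the most abundant PRC1 gene, with 75.9 and 72.4 FPKM in DMSO and 85.5 and 90.4 FPKM in RDF. The groups did not overlap, and the log2 fold change was 0.24 (SE 0.058, adjusted p = 0.0333), with 5 of 12 other fits above the threshold and the highest adjusted p at 0.166. Rnf2 (RING1B), the main ubiquitin ligase of PRC1 in ESCs, had 51.5 and 51.3 FPKM in DMSO and 59.1 and 57.5 FPKM in RDF. All values of Rnf2 in RDF were higher, with an interval from 0.05 to 0.31, and the adjusted p was 0.0578. Ring1, the second ligase, had only 1.29 and 1.30 FPKM in DMSO and 1.96 and 1.69 FPKM in RDF (interval 0.02 to 0.57, adjusted p = 0.111), with as few as about 25.5 fragments. Rnf2 thus supplied 96.8% to 97.6% of the RNA of the ligase pair.

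The Pcgf genes, which decide the kind of PRC1 that forms, held no call. Pcgf6, of a PRC1 variant that silences germline genes in ESCs, had 29.6 and 25.9 FPKM in DMSO and 24.8 and 24.2 FPKM in RDF, the lowest log2 fold change of the 45 genes at -0.17 (interval -0.36 to 0.02, adjusted p = 0.163). Pcgf2, of canonical PRC1, had between 25.5 and 28.3 FPKM in the 4 samples, with overlapping groups and an interval from -0.21 to 0.13. Pcgf1, of the variant that carries Kdm2b, had 11.1 and 12.2 FPKM in DMSO and 13.2 and 12.7 FPKM in RDF (interval -0.04 to 0.33). Bmi1, a close relative of Pcgf2, was scarce, with 2.51 and 2.34 FPKM in DMSO and 4.06 and 2.66 FPKM in RDF. Its RDF replicates differed more from each other than RDF replicate 2 did from DMSO, and its interval ran from -0.07 to 0.73. Pcgf6 and Pcgf2 were near equal in their share of the summed Pcgf FPKM, with 41.8% and 38.0% for Pcgf6 and 39.0% and 40.8% for Pcgf2 in the DMSO samples. In the RDF samples the share was 36.7% and 35.7% for Pcgf6 and 37.8% and 41.7% for Pcgf2.

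**Figure D4:**
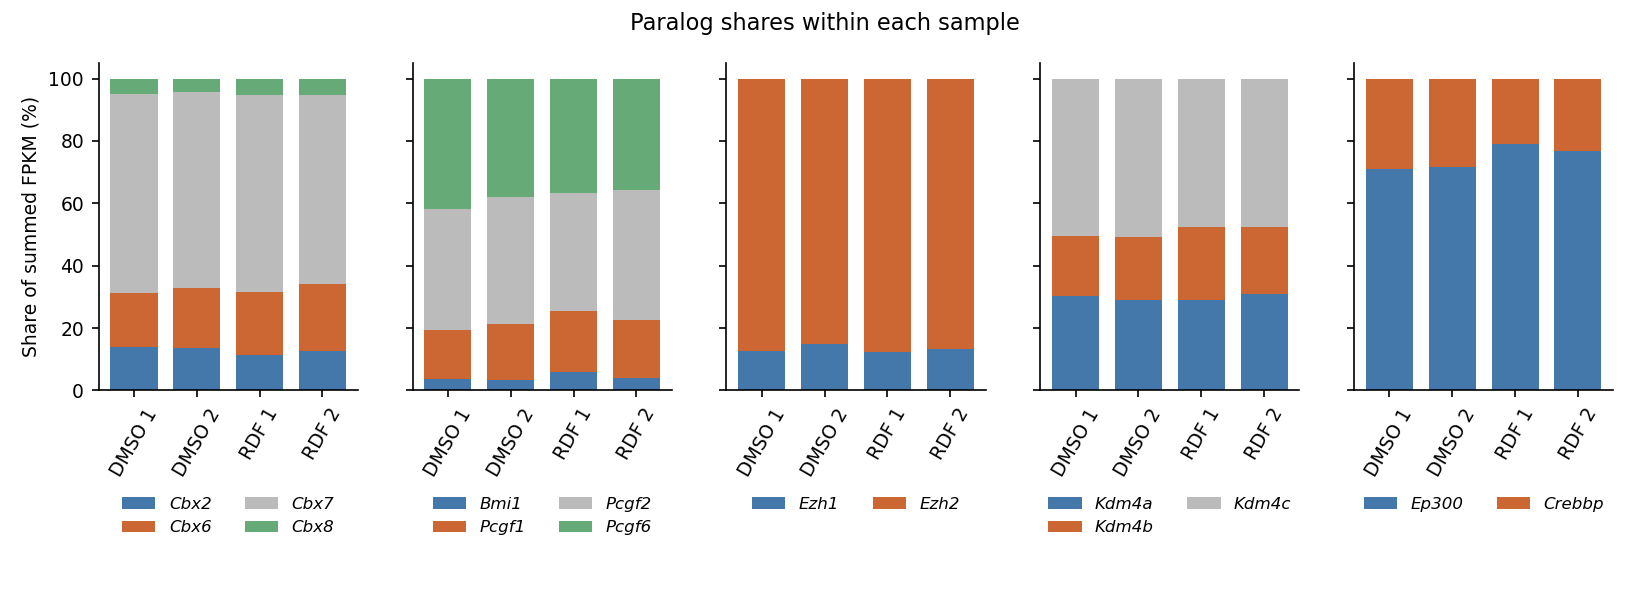
Share of the summed FPKM, in percent (y axis), held by each paralog in each of the 4 samples (x axis), for the Cbx, Pcgf, Ezh and Kdm4 genes and for Ep300 with Crebbp. Each bar sums to 100. Cbx7 and Ezh2 keep 60.7% or more and 85.2% or more in every sample, while Ep300 holds 71.1% and 71.6% in DMSO and 79.1% and 76.6% in RDF.

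Of the 3 H3K4 methyltransferase subunits on the list none passed the test. Wdr5 and Ash2l, shared by all SET1 and MLL complexes, had 68.8 to 76.8 FPKM and 97.4 to 105.9 FPKM in the 4 samples. Wdr5 had 75.9 and 76.8 FPKM in DMSO and lower values of 68.8 and 71.2 FPKM in RDF, with a log2 fold change of -0.12 and an interval from -0.25 to 0.00 (adjusted p = 0.142). Ash2l overlapped between the groups, with an interval from -0.17 to 0.13. Men1, the menin subunit of MLL complexes, had 14.3 to 16.0 FPKM with overlapping groups and an interval from -0.20 to 0.18. All 3 estimates lay below 0, with 0 called and 0 of 3 at an unadjusted p under 0.05 in limma. The enzymes that these subunits serve were not on the list. Among the further chromatin genes described below, Mll3 (log2 fold change 0.56, adjusted p = 0.0165), Mll2 (0.49, adjusted p = 0.0412) and Setd1a (0.43, adjusted p = 0.0106) rose. The enzymes Mll1 (0.34, adjusted p = 0.0772) and Wbp7 (0.15, adjusted p = 0.257) were not called. The SET1 subunit Cxxc1 fell (-0.25, adjusted p = 0.0440), while the subunits Rbbp5 (0.006, adjusted p = 0.955) and Dpy30 (-0.14, adjusted p = 0.128) were not called. These genes were chosen for mention after their values were seen. The longest transcripts had 6487 bases (Setd1a) or more for the enzymes, and 799 (Dpy30) to 3632 bases (Rbbp5) for the subunits. Of all genes in the longest length class, from 4266 bases, 21.6% were called higher. The part of length in this contrast was not tested. Dot1l, the H3K79 methyltransferase, had 9.29 and 8.84 FPKM in DMSO and 9.46 and 9.73 FPKM in RDF (interval -0.10 to 0.25).

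Of the 5 H3K9 methyltransferases 0 were called by limma, with 2 higher and 0 lower at an unadjusted p under 0.05, against 22.5% and 15.5% of all genes. Those nearest to the threshold were Ehmt1 and Suv39h1. Ehmt1 (GLP) had 10.6 and 9.91 FPKM in DMSO and 12.2 FPKM in both samples in RDF (interval 0.05 to 0.40, adjusted p = 0.0728). Its partner Ehmt2 (G9a), with which it forms the main H3K9 dimethylase, was more abundant at 94.9 to 101.6 FPKM, or 89.2% to 90.8% of the pair, and its interval ran from -0.06 to 0.19. Suv39h1, a trimethylase of pericentromeric heterochromatin, had 19.8 and 20.2 FPKM in DMSO and 23.3 and 22.5 FPKM in RDF (interval 0.04 to 0.33, adjusted p = 0.0738). It shares 596 exonic bases with a gene on the opposite strand. Suv39h2, its paralog, had 7.65 to 9.28 FPKM and overlapping groups, with the widest interval of the 5, from -0.31 to 0.24. Setdb1, which silences endogenous retroviruses in ESCs, had 14.01 to 15.3 FPKM, also with overlapping groups (interval -0.10 to 0.23).

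All 11 demethylases had estimates above 0, and 2 of them, Kdm3a and Kdm4b, rose. The share called higher was 18.2%, against 13.3% of all genes. It lay between the 14.7% and 21.6% of all genes called higher in the 2 longest length classes, which hold all 11. None was called lower, and at an unadjusted p under 0.05 there were 5 of 11 higher and 0 lower, against 22.5% and 15.5% of all genes. Kdm3a, which removes H3K9 mono- and dimethylation (chromosome 6, 71538968 to 71582899), had 32.8 and 30.1 FPKM in DMSO and 39.0 and 40.8 FPKM in RDF. Its groups were separate, and its log2 fold change was 0.34 (SE 0.066, adjusted p = 0.0187), with the adjusted p above 0.05 without DMSO replicate 2 or either RDF sample and up to 0.117. Its paralog Kdm3b had 16.1 and 18.1 FPKM in DMSO and 19.6 and 21.5 FPKM in RDF (interval 0.05 to 0.45, adjusted p = 0.0760). Kdm3a held 62.5% to 67.0% of the pair in the 4 samples, with overlapping groups, so that these paralogs were measured in like proportion in both conditions.

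Kdm4b, which acts on H3K9 and H3K36 trimethylation, had 14.1 and 13.9 FPKM in DMSO and 18.0 and 16.2 FPKM in RDF. The groups were separate, but its call was the least stable of the 9. The log2 fold change of 0.27 (SE 0.074, adjusted p = 0.0493) was over the threshold in 9 of 12 other fits, with adjusted p up to 0.195. Kdm4c and Kdm4a, with the same substrates, had 34.9 to 37.2 FPKM and 19.9 to 23.2 FPKM, with intervals from -0.14 to 0.15 and from -0.06 to 0.29. Within this family the share of Kdm4c was 50.6% and 50.8% in the DMSO samples and 47.6% and 47.5% in the RDF samples, while that of Kdm4b was 19.3% and 20.3% against 23.3% and 21.6%.

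The remaining demethylases held no call. Kdm6b, which removes H3K27 methylation and so acts against PRC2, had 13.5 and 13.99 FPKM in DMSO and 14.4 and 17.1 FPKM in RDF (interval -0.05 to 0.40, adjusted p = 0.211). Kdm2b, which binds CpG islands and brings PRC1 to them, had 17.9 to 21.1 FPKM (interval -0.04 to 0.30). For the H3K4 demethylases of the Kdm5 family the levels were 6.40 to 7.82 FPKM for Kdm5a, 40.7 to 48.1 FPKM for Kdm5b and 52.9 to 60.2 FPKM for Kdm5c. Both RDF values were higher in each of these, with intervals from 0.00 to 0.39, 0.00 to 0.31 and -0.04 to 0.26, and with Kdm5c at 50.7% to 52.9% of the family in every sample. Kdm1a (LSD1), which removes H3K4 mono- and dimethylation, had 96.3 and 82.8 FPKM in DMSO and 92.5 and 86.8 FPKM in RDF, so that its RDF values lay between the DMSO values (interval -0.20 to 0.21).

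The deacetylases included the most abundant of the 45 genes and none passed the test. Hdac1, the catalytic subunit of NuRD, Sin3 and CoREST complexes, had 205.8 and 199.6 FPKM in DMSO and 187.0 and 197.0 FPKM in RDF. Both RDF values were lower, though RDF replicate 2 was close to DMSO replicate 2, and the interval ran from -0.22 to 0.06. Hdac2, which shares these complexes, had 92.4 to 102.8 FPKM (interval -0.19 to 0.15), and Hdac3, of the NCoR and SMRT complexes, had 73.1 to 81.5 FPKM (interval -0.23 to 0.10), both with overlapping groups. In limma 0 of 3 were called and 0 were at an unadjusted p under 0.05. Hdac1 held 51.4% to 54.3% of the summed FPKM of the 3 genes.

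Ep300 and Suz12 had the largest rises of the 45 genes, and their order depended on the fit. The log2 fold change of Ep300 was lower than that of Suz12 with quantile normalization (0.84 against 0.87), with the length and GC correction (0.75 against 0.79), without DMSO replicate 2 (0.87 against 0.88) and without RDF replicate 2 (0.82 against 0.83). Ep300 encodes p300, which acetylates H3K27 at enhancers, and lies on chromosome 15 (81415781 to 81482507, plus strand). It had 5.29 and 5.01 FPKM in DMSO and 9.84 and 11.1 FPKM in RDF. The mean was 2.04 times higher, and the groups were far apart. The log2 fold change was 0.90 (SE 0.090, adjusted p = 0.00286), between 0.82 and 0.98 over the fits that leave out 1 sample. Its paralog Crebbp (CBP) had 2.15 and 1.99 FPKM in DMSO and 2.61 and 3.39 FPKM in RDF. These values did not overlap either, but the RDF replicates were apart, and the log2 fold change of 0.38 (interval 0.07 to 0.69) had an adjusted p of 0.0840. Ep300 had 2.46 and 2.52 times the FPKM of Crebbp in the DMSO samples and 3.77 and 3.28 times in the RDF samples.

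The other acetyltransferases were not called. Kat2a (GCN5), which acetylates H3K9, had 38.4 and 38.3 FPKM in DMSO and 36.1 and 35.1 FPKM in RDF, a log2 fold change of -0.10 (interval -0.24 to 0.03, adjusted p = 0.217). Kat5 (TIP60), which acetylates H4 and H2A, had 15.6 to 18.5 FPKM with overlapping groups (interval -0.08 to 0.30), and it shares 423 exonic bases (18.0%) with Rnaseh2c on the opposite strand. Across the list, 2 of 13 genes at 50 FPKM or more were called (median log2 fold change 0.07), 5 of 23 genes from 10 to under 50 FPKM (0.14) and 2 of 9 genes under 10 FPKM (0.30). The median change was thus lowest among the abundant genes, which is a description of the 45 genes without a test. Of all genes tested, whatever their level, 13.3% were called higher, and their share at each level was not computed.

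The promoters of the risers are shown because the list was searched for the letters of motifs of factors linked to cAMP, growth and the cell cycle. The windows, from RefSeq on build GRCm38.p6, hold 250 bases before and 50 bases after a gene's start, and 36 of the 45 genes matched one. Their coordinates are not those of NCBIM37, on which the gene positions are given. The others were Pcgf1, Cbx2, Ash2l, Kdm3b, Kdm4b, Kdm5a, Kdm6b, Hdac1 and Hdac3. A gene was counted if any of its windows held the letters, so shares of genes and shares of single windows are unlike measures. On both strands, the full cAMP response element TGACGTCA was in 2 of 36 (5.56%: Cbx8 and Suv39h2), against 3.82% of tested genes with a window and 1.79% of all 32851 windows. The E-box CACGTG, which shares the letters ACGT with the cAMP response element, was in 7 of 36 (19.4%: Bmi1, Pcgf2, Cbx6, Cbx8, Ehmt2, Kdm4c and Kat5), against 12.6% of tested genes and 7.15% of windows. The E2F letters TTTGGCGC or TTTCCCGC were in 3 of 36 (8.33%: Ezh2, Suz12 and Phf19), against 3.67% of tested genes and 1.56% of windows. Of the 8 risers with a window, Suz12, Cbx6 and Cbx8 held one of the motifs. A match is a description, not a site or a cause, and no match says only that the letters are not in the window.

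The windows of 3 risers follow, those of Suz12 and Ep300 because they rose most, a choice made after their values were seen, and that of Cbx8 because it was the riser with a full cAMP response element. Capitals mark the E2F letters in Suz12, from base 32 of the window, and the cAMP response element in Cbx8, from base 222. The E-box of Cbx8 starts at base 153 and is left in lower case. The Suz12 window (chr11:79992856-79993155, plus strand) has a GC content of 71.0%, that of Ep300 (chr15:81585964-81586263, plus strand) 72.3% and that of Cbx8 (chr11:119040864-119041163, minus strand) 66%.
Suz12: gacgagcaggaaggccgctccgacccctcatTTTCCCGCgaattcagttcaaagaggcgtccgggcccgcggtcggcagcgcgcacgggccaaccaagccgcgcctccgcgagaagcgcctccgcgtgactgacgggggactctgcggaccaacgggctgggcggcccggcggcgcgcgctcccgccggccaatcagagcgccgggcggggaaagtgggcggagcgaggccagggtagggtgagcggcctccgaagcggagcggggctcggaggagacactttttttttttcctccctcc
Ep300: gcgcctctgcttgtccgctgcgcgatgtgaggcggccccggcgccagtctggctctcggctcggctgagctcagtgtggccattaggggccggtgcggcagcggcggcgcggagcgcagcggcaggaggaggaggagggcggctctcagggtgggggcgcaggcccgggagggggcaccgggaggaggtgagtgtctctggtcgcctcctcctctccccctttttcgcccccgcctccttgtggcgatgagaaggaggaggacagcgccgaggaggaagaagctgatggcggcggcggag
Cbx8: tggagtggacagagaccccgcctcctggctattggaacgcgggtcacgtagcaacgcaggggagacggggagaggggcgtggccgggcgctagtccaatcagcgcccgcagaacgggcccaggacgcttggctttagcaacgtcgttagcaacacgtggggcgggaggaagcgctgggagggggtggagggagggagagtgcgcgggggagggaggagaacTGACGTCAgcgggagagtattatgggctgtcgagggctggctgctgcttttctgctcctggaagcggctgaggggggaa
Ep300 held none of the 3 motifs in this window, and Cbx8, with the cAMP response element, was the least abundant of the risers.

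Other genes of the same machinery were read from a list of 104 further chromatin genes, of which 103 were matched and 94 tested. In this list 23 rose (24.5%, against 13.3% of all genes) and 6 fell (6.38%, against 8.28%), at a median log2 fold change of 0.15. The median transcript length of the list was 4358 bases, which lies in the longest length class (from 4266 bases). Of all genes in that class, 21.6% were called higher and 3.57% lower. The part of length in the counts of this list was not tested. The rises were 6 and 3, and the falls 1 and 0, without RDF replicate 1 and without RDF replicate 2. Ash1l, named here for this reason, was among the 23 and passed the filter on low values only through RDF, with 0.836 and 0.939 FPKM in DMSO and 1.60 and 1.92 FPKM in RDF. The largest rise was that of Aebp2, a PRC2 accessory subunit that joins Jarid2, with 12.2 and 12.1 FPKM in DMSO and 19.6 and 23.4 FPKM in RDF (log2 fold change 0.77, SE 0.094, adjusted p = 0.00477). It was followed by Rcor1, the CoREST scaffold that couples Kdm1a to Hdac1 and Hdac2, at 7.51 and 7.08 FPKM against 11.3 and 13.3 FPKM (0.68, adjusted p = 0.00738). Mll5 (Kmt2e), of the Trithorax family, had 2.61 and 3.04 FPKM against 5.12 and 5.04 FPKM (0.67, adjusted p = 0.00834). Mga, the DNA-binding partner of Pcgf6, had 8.16 and 8.51 FPKM against 12.8 and 14.4 FPKM (0.65, adjusted p = 0.00555). Atrx, a remodeller that deposits histone H3.3 in heterochromatin, had 13.3 and 13.1 FPKM against 20.9 and 21.0 FPKM (0.62, adjusted p = 0.00271). In each of these 5 genes both RDF samples were above both DMSO samples.

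The largest falls of that list were those of a pair of arginine methyltransferases, a Pcgf6 partner and a pair of deacetylases. Prmt2 had 6.48 and 6.75 FPKM in DMSO and 4.11 and 4.41 FPKM in RDF (log2 fold change -0.53, adjusted p = 0.0102). L3mbtl2, a chromatin-binding subunit of the PRC1 variant that holds Pcgf6 and Mga, had 36.9 and 37.3 FPKM against 28.8 and 27.2 FPKM (-0.39, adjusted p = 0.00843). Mga and L3mbtl2, subunits of 1 complex, therefore moved in opposite directions while Pcgf6 was not called. L3mbtl2 is also the neighbour of Ep300 on the plus strand of chromosome 15 (81494319 to 81518745), so adjacent genes moved in opposite directions. Their longest transcripts differ, with 3487 bases for L3mbtl2 and 8749 bases for Ep300. Prmt5, which methylates H4 and H2A arginines, had 129.5 and 128.1 FPKM against 98.1 and 100.4 FPKM (-0.37, adjusted p = 0.00652). Hdac11, a deacetylase, had 14.95 and 14.4 FPKM against 11.1 and 11.8 FPKM (-0.34, adjusted p = 0.0217), and the sirtuin Sirt6 had 21.9 and 23.8 FPKM against 18.65 and 19.04 FPKM (-0.27, adjusted p = 0.0390). In each of these 5 genes both RDF samples were below both DMSO samples. Their longest transcripts had 1891 (Sirt6) to 3487 bases (L3mbtl2), while those of the 5 largest rises had 5685 bases (Rcor1) or more. The part of length in these opposite changes was not tested.

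Genes that PRC2 silences in ESCs were read from a list of 38 developmental regulators, to set beside the rise of Suz12 RNA. They were scarce in both conditions, since 22 of 38 had a mean under 1 FPKM and 5 a mean under 0.1 FPKM. Of the 16 tested, 4 were called higher in limma (25%, against 13.3% of all genes) and 0 lower (against 8.28%). At an unadjusted p under 0.05 there were 4 higher (25% of the 16) and 1 lower, against 22.5% and 15.5% of all genes. Both RDF values lay above both DMSO values for 68.8% of the 16, against 37.1% of all genes, and below them for 12.5%, against 28.5%. These shares depend on which genes passed the filter on low values, which kept or left out some of the 38 through their RDF values. No result about the list is drawn from them. Of the 4, 1 was tested only because of its RDF values. Gata3 had 0.730 and 0.898 FPKM in DMSO and 2.73 and 2.93 FPKM in RDF, and it passed the filter on low values only through its RDF samples. Conversely, Pax9 had 1.08 and 1.07 FPKM in DMSO and 0.530 and 0.776 FPKM in RDF, and it was left out through its RDF samples. Gata6 had 2.83 and 1.45 FPKM against 4.36 and 4.19 FPKM, Hand1 had 3.88 and 3.43 FPKM against 6.12 and 6.98 FPKM, and Bmp4 had 4.89 and 4.83 FPKM against 7.03 and 8.02 FPKM. Gata3 and Hand1 are also on the trophoblast list and Gata6 on the primitive endoderm list given above. Cdkn2a, a cell cycle inhibitor locus that Polycomb silences in many cells, was the exception in level, with 59.7 to 63.1 FPKM in the 4 samples (interval -0.08 to 0.18).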

How the data were processed

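The mRNA of 2 DMSO and 2 RDF samples was sequenced from stranded libraries made with 150 ng of RNA. The authors mapped reads and estimated FPKM, per the submitters' processing notes with TopHat2 2.0.14, Bowtie2 2.1.0 and Cufflinks 2.2.1 on mm9, and deposited FPKM for 23235 symbols per sample. How fragments shared by paralogs or overlapping genes were divided, and any scaling beyond that of FPKM, are not given in the sources used here. The deposited FPKM were used as they stand.

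Samples were grouped by their titles. Tests covered genes that averaged at least 1 FPKM, compared on log2(FPKM + 1) with limma 3.58.1 in R 4.3.3 (mean-variance trend, 2 residual degrees of freedom, Benjamini-Hochberg adjustment over 11733 genes, threshold 0.05); the change of low genes is understated on this scale. Adjusted p-values are from this fit unless another fit is named beside them. The members and lists were chosen with earlier results of these data known, so no p is given for a list. All 45 genes are accounted for, with full statistics for those called; of the other chromatin genes, the 5 largest rises and 5 largest falls are named, and others only where a result turns on them. Standard errors are limma's, and intervals are 95% confidence intervals.

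Depth was estimated from the steps of low FPKM of single-transcript genes of at least 1500 bases. Of these values 42.6% to 47.5% lay within 0.1 of a whole fragment, against 20% if spread evenly. The depth was chosen to bring these same values nearest to whole fragments, so this share is no independent check of it. Fragments per gene are therefore approximate and cover counting error only. Transcript lengths, GC content and positions came from the NCBIM37 annotation, with 96.5% of tested genes matched. The alternatives were median-ratio scaling, quantile normalization, a pseudocount of 0.1, no filter on low values, a minimum of 5 FPKM, no trend, the replicate number as a block, a length and GC correction, and leaving out each sample.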

Additional observations from a re-analysis of the deposited data

How the results depend on the processing

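Of the 9 rises, only those of Suz12 and Ep300 stayed past the threshold in all 12 other fits, and 5 of 9 (also Cbx6, Cbx7 and Kdm3a) in every other fit of all 4 samples. No filter on low values, with 18012 genes tested, gave 942 genes higher and 606 lower, 5 chromatin genes higher and 13 other chromatin genes higher. The part of the larger number of genes in these counts was not tested. The median log2 fold change of the 45 genes was 0.1049 with median-ratio scaling, 0.1163 with quantile normalization, 0.1157 with a minimum of 5 FPKM (which leaves out the scarcer genes) and 0.05841 with the length and GC correction. Leaving out each sample gave 253 to 1121 genes higher, 195 to 731 lower, 2 to 8 chromatin genes higher (5 without DMSO replicate 2 and 2 without RDF replicate 1 or 2), 3 to 15 other chromatin genes higher and 0 to 4 lower, and a median of the 45 genes from 0.1208 to 0.1595; these fits have fewer samples. Rises were 61.6% of all calls, 53.0% with median-ratio scaling and 53.4% with quantile normalization. The sign of small changes turned for Pcgf2 (0.00214), Dot1l (-0.04092), Setdb1 (-0.003429), Kdm4c (-0.05416) and Kdm5a (-0.000188) with the length and GC correction, for Ash2l (0.003809), Hdac2 (0.005845) and Kdm4c (-0.009659) with quantile normalization, and for Kdm1a (-0.02813) and Kdm4c (-0.02599) with median-ratio scaling. In the fits that leave out 1 sample, it turned for Ezh2 (-0.02646 to 0.1844), Pcgf2 (-0.1153 to 0.02983), Ash2l (-0.08189 to 0.03798), Men1 (-0.0906 to 0.06724), Suv39h2 (-0.1552 to 0.08902), Kdm1a (-0.1026 to 0.1132), Kdm4c (-0.03737 to 0.05126), Hdac2 (-0.09773 to 0.05495) and Hdac3 (-0.1443 to 0.01074). None of these genes was called, and the cause was not tested. With the replicate block, 1651 genes were higher, 1066 lower and 11 chromatin genes higher, with Phf19 (adjusted p = 0.0497) and Kdm3b (adjusted p = 0.0386) added. The labels do not say that replicate numbers mark a shared batch, and across genes, which are no replicates, deviations of same-numbered samples correlated with r = 0.134 (Pearson) and rho = 0.114 (Spearman). With 2 samples per condition, and about 25.5 fragments behind the lowest Ring1 value, the smallest change called among the 45 genes was that of Phc1, 0.24 on the log2 scale.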
